A study of Mus musculus with 8 samples.

Results

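Immediate early genes and the MYC family were followed in E14 mouse ESCs during the first hours of the change from serum to 2i. The set holds Egr1, Fos, Fosl1, Jun, Junb, Ier2, Ier3, Myc, Mycn, and Mycl, chosen by name and matched through Ensembl identifiers, and is 10 of the 37263 genes counted. E14 is an ESC line of strain 129/Ola, grown here without feeders and with LIF. Its medium with fetal calf serum was exchanged for a serum-free one that holds LIF and the inhibitors PD0325901 and CHIR99021 (2i), and RNA was taken 4, 16, 24, and 32 hr later. In the vitC group 17 µM vitamin C was added to the same 2i medium. For every time and treatment 1 library was made from RNA depleted of rRNA, and all 8 cultures had received both inhibitors and LIF. No serum library was analysed here, so that the change from serum to the first 4 hr is not covered.

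Serum factors act through receptors, RAS, RAF, and MEK on the kinase ERK. ERK phosphorylates ternary complex factors such as ELK1, which sit with SRF on CArG boxes and switch on immediate early genes within minutes and without new protein synthesis. PD0325901 blocks MEK, and CHIR99021 blocks GSK3, a kinase that marks β-catenin for destruction and also phosphorylates MYC and N-MYC so that the ubiquitin ligase FBXW7 can bind them. The products of Fos, Fosl1, Jun, and Junb pair to form AP-1, whereas MYC proteins pair with MAX on E boxes, many of them in genes for ribosome biogenesis and nucleotide synthesis.

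The deposited values are reads counted per gene, with totals of 12940716 to 18434932 in the 2i libraries and 4753528 to 13157570 in the vitC libraries. Levels are given as CPM, counts scaled to library size after TMM normalization, and intervals and floors cover counting error only. A floor of 3 counts corresponds to 0.158 to 0.643 CPM. Changes were tested with edgeR in an additive model of time and treatment on 14931 genes (1 CPM or more in 2 or more libraries), with p-values adjusted over these genes and a threshold of 0.05. With 1 library for each combination, these p-values set a change against the departure of the libraries from a common time course. They do not set it against the spread between cultures. The deposited file names carry lane 8 for 4 and 24 hr and lane 7 for 16 and 32 hr, so that 24 hr against 4 hr and 32 hr against 16 hr are the comparisons within a lane, and lane and time cannot be told apart in the others. Reads on Lars2 and 2 features that vary with it made up 0.0277% and 0.0113% of both 4 hr libraries and 0.206% to 7.11% of the later ones.

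The RefSeq promoter table (GRCm38.p6) held 6 of the 10 genes, namely Fos, Jun, Junb, Ier3, Mycn, and Mycl. In the 250 bases before and 50 bases after the annotated start of these 6, both strands were searched for the CArG box and for the ETS core CCGGAAG, the CRE TGACGTCA, the AP-1 site TGACTCA, the E box CACGTG, and the TCF/LEF site CTTTGAT. None of the 6 windows held any of them. Over all 32851 promoters of the table the shares with a match were 1.63%, 8.86%, 1.79%, 5.2%, 7.15%, and 3.73%. TATAAA, the core of the TATA box, was found in Fos (-33 to -28), Mycl (-8 to -3), and Junb (1 to 6), and in 13.6% of all promoters. The absence of a match says only that these letters were not in these windows. Fos is shown as the low AP-1 gene, Junb as an AP-1 gene that rose, and Mycn as the MYC gene that fell, from 5′ to 3′ on the strand of the gene, with TATAAA in capitals.
Fos, chr12:85473640-85473939, plus strand: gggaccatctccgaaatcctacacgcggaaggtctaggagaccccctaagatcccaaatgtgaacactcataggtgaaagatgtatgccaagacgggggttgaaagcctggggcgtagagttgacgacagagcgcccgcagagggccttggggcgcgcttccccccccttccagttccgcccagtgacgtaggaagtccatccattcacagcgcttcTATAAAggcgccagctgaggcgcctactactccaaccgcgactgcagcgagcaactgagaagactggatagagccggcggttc
Junb, chr8:84978699-84978998, minus strand: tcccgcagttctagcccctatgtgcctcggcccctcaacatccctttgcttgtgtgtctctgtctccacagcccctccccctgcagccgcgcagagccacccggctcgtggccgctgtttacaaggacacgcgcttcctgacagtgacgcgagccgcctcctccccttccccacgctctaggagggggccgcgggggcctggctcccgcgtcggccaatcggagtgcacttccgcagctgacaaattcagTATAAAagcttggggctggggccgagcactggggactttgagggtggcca
Mycn, chr12:12941787-12942086, minus strand: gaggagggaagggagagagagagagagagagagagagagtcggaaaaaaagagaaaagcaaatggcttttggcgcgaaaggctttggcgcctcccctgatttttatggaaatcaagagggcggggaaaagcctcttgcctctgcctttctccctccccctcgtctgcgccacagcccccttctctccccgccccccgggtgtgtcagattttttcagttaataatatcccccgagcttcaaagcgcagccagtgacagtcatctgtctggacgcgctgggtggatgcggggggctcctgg

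Relative to length (RPKM, with merged exon lengths of GENCODE M21), Ier2 and Junb were the most abundant of the 10 genes. The median over the 8 libraries was 38.9 RPKM for Ier2, 27 for Junb, 20.7 for Mycn, and 14.5 for Jun. It was 6.47 RPKM for Ier3, 5.01 for Mycl, 2.49 for Myc, and 1.35 for Fos. Fosl1 and Egr1 had medians of 0.0354 and 0.0346 RPKM. In this order each gene overlapped the next in range, with 2 exceptions: the lowest Jun library (12.9 RPKM) was above the highest Ier3 library (8.03 RPKM), and the lowest Fos library (0.551 RPKM) was above the highest Fosl1 library (0.258 RPKM). The sources used here do not say whether strand was kept, and exons of Jun overlap 232 bases of Junos and those of Junb 173 bases of Prdx2 on the opposite strand. Reads from these overlaps cannot be told apart by gene. Fosl1 overlaps Ccdc85b on the opposite strand over 1163 of its 2033 bases. Ccdc85b was not among the genes counted, so that its reads could have been counted for Fosl1 if strand was not kept.

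Egr1, a zinc finger factor and a classical target of ERK, was close to absent. It had 9, 0, 0, and 7 counts at 4, 16, 24, and 32 hr in 2i and 7, 1, 0, and 2 counts with vitC. Fosl1, which encodes the AP-1 subunit FRA1, had 9, 0, 0, and 0 counts in 2i and 6, 1, 0, and 5 counts with vitC. Both libraries at 4 hr held both genes, whereas neither was counted in either library at 24 hr. Summed over both treatments, Egr1 was at 0.523 CPM (0.299 to 0.849, 95% Poisson interval) at 4 hr and Fosl1 at 0.49 CPM (0.274 to 0.809). A count of 0 at 24 hr over both libraries has an upper limit of 0.212 CPM by the same interval, and a floor of 3 counts there corresponds to 0.172 CPM. By exact 95% counting intervals, the level at 24 hr was at most 0.682 of that at 4 hr in 2i for either gene, whereas with vitC, at a lower depth, the upper limits were 1.99 for Egr1 and 2.44 for Fosl1, so that no difference was detectable there. Both genes stayed below 1 CPM in every library and were not tested, which leaves 8 of the 10 genes in the tests. In bulk RNA such as this, fewer cells of a type and less RNA per cell cannot be told apart.

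Fos was low and uneven. Its level was 3.78, 1.89, 1.80, and 4.31 CPM at 4, 16, 24, and 32 hr in 2i. With vitC it was 3.80, 1.30, 4.93, and 2.58 CPM. The treatments were alike at 4 hr, both were at or near their lowest at 16 hr, and they parted at 24 hr, where vitC was 2.74 times 2i (1.47 to 5.11, exact 95% counting interval, as for all ratios of 2 libraries), from 23 counts in each library. At 32 hr the ratio was 0.6 (0.375 to 0.943). In edgeR, 16 hr against 4 hr gave -1.19 on the log2 scale, with a standard error of 0.52 and an adjusted p of 0.139, and 24 hr against 4 hr gave -0.30 (0.52, adjusted p = 0.724).

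The JUN partners were more abundant. Jun was at 47.9, 41.1, 44.0, and 60.9 CPM at 4, 16, 24, and 32 hr in 2i and at 44.3, 51.2, 47.0, and 45.7 CPM with vitC. Only the 2i library at 32 hr stood above the others, and no edgeR comparison of Jun passed (adjusted p = 0.427 to 0.984 between times). Junb, whose product pairs with FOS and can restrain JUN, was at 46.4, 73.6, 64.5, and 88.7 CPM in 2i and at 54.7, 59.8, 57.0, and 77.8 CPM with vitC. In both treatments its 4 hr library was the lowest and its 32 hr library the highest, and Junb rose by 0.71 on the log2 scale from 4 to 32 hr (standard error 0.16, adjusted p = 0.00637, edgeR). Within a lane, the log2 fold change of Junb was 0.26 for 24 hr against 4 hr (adjusted p = 0.269, edgeR) and 0.32 for 32 hr against 16 hr (adjusted p = 0.383, edgeR). The rise was not called with the GC content and length correction (0.39, adjusted p = 0.115, edgeR), nor without the 2i library at 4 hr (0.49, adjusted p = 0.0778) or at 32 hr (0.66, adjusted p = 0.0849). As RPKM, Jun exceeded Fos 7.02-fold to 29.1-fold and Junb exceeded Fos 11.8-fold to 47.1-fold in the 8 libraries.

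Ier2, which encodes a small nuclear protein induced by growth factors, was at 66.2, 55.1, 63.4, and 94.0 CPM at 4, 16, 24, and 32 hr in 2i and at 43.9, 51.3, 54.9, and 71.6 CPM with vitC. The 32 hr library was the highest in each treatment. From 4 to 32 hr Ier2 rose by 0.60 on the log2 scale (standard error 0.16, adjusted p = 0.0146, edgeR), and from 16 to 32 hr, within a lane, the log2 fold change was 0.63 (0.16, adjusted p = 0.0949, edgeR). The 4 to 32 hr call was lost with the GC content and length correction (0.39, adjusted p = 0.0704, edgeR) and without a treatment term (0.59, adjusted p = 0.0747). It was also lost without the vitC library at 4 hr (0.42, adjusted p = 0.158), the vitC library at 32 hr (0.65, adjusted p = 0.0785), or the 2i library at 32 hr (0.55, adjusted p = 0.135), all by edgeR. Ier3, an early gene linked to cell survival, was at 6.87, 8.72, 9.08, and 6.90 CPM in 2i and at 5.52, 4.61, 7.72, and 8.08 CPM with vitC. It showed no common order of times in both treatments, and none of its edgeR comparisons passed (adjusted p = 0.352 to 0.837 between times).

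**Figure D1:**
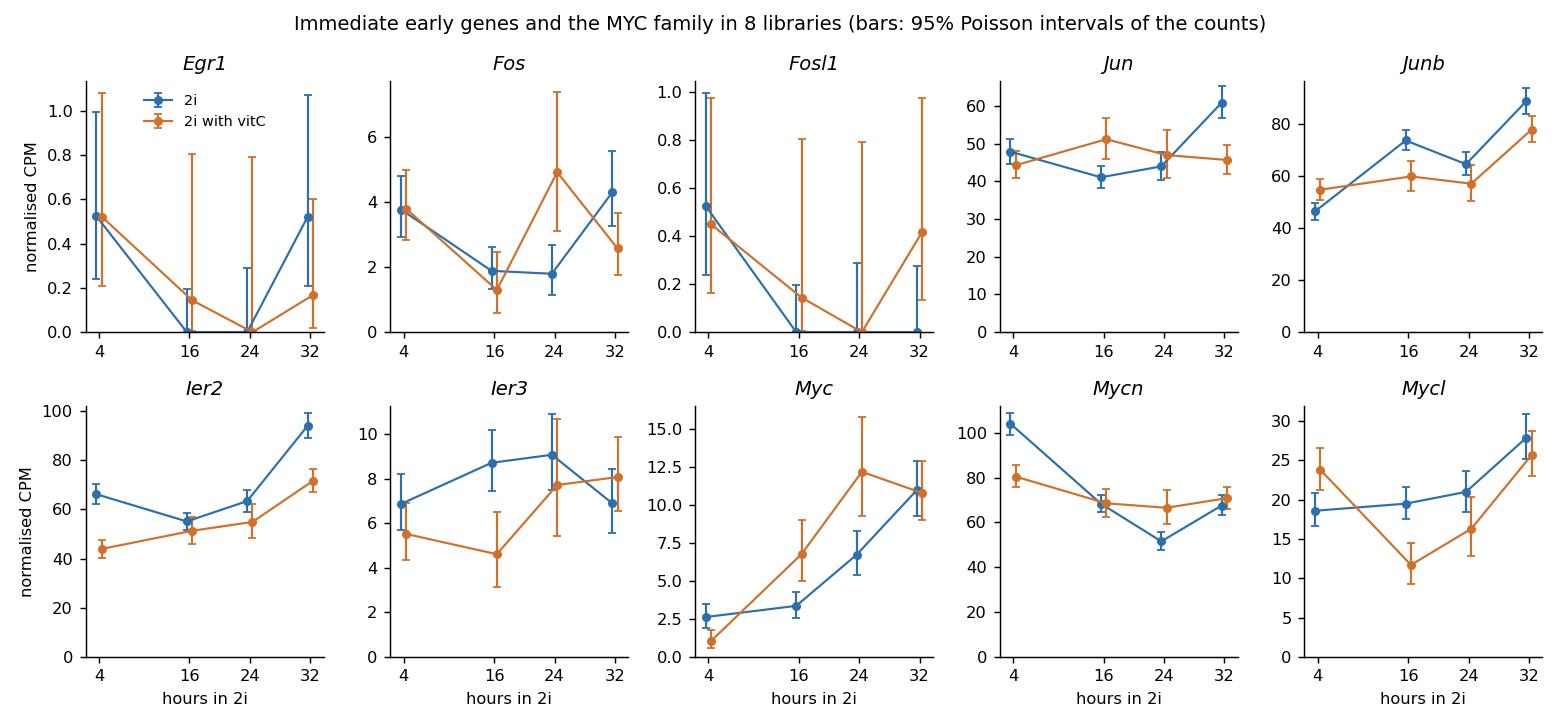
Level of each of the 10 genes in normalised CPM (vertical axes, from 0) against hours in 2i, with 1 library per point, 2i in blue and 2i with vitC in orange, and bars for 95% Poisson intervals of the counts. Myc climbs from 2.62 to 11.0 CPM in 2i and from 1.04 to 10.8 CPM with vitC, whereas Mycn is highest at 4 hr and Egr1 and Fosl1 lie at 0 at 24 hr.

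Among the 8 tested genes the largest change was in the MYC family. Myc was at 2.62, 3.36, 6.73, and 11.0 CPM at 4, 16, 24, and 32 hr in 2i, from 45, 64, 86, and 148 counts. With vitC it was at 1.04, 6.77, 12.2, and 10.8 CPM, from 14, 47, 57, and 130 counts. In both treatments every later library was above the 4 hr library, and the level was highest at 32 hr in 2i and at 24 hr with vitC. Myc rose by 2.24 on the log2 scale from 4 to 24 hr (standard error 0.47, adjusted p = 0.00634, edgeR), a 4.71-fold change within a lane. From 4 to 32 hr it rose by 2.51 (0.45, adjusted p = 0.00204, edgeR), or 5.68-fold. The log2 fold change of 16 hr against 4 hr was 1.31 (0.47, adjusted p = 0.0759, edgeR) and that of 32 hr against 16 hr was 1.19 (0.43, adjusted p = 0.229, edgeR). The size of the 24 hr change differed between the treatments, with 2.57-fold (1.77 to 3.78) in 2i and 11.7-fold (6.44 to 22.7) with vitC, counting error only.

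Mycn, which encodes N-MYC, ran the other way. It was at 104, 68.3, 51.5, and 67.5 CPM at 4, 16, 24, and 32 hr in 2i and at 80.4, 68.5, 66.5, and 70.8 CPM with vitC. The 4 hr library was the highest and the 24 hr library the lowest in each treatment. Mycn fell by 0.66 on the log2 scale from 4 to 24 hr (standard error 0.17, adjusted p = 0.0182, edgeR), to 0.497 of the 4 hr level in 2i (0.454 to 0.544) and to 0.827 with vitC (0.726 to 0.939). At 32 hr against 4 hr the log2 fold change was -0.41 (0.17, adjusted p = 0.0871, edgeR). Mycl, the gene of L-MYC, was at 18.6, 19.5, 21, and 27.9 CPM in 2i and at 23.8, 11.7, 16.3, and 25.7 CPM with vitC. It was lowest at 4 hr in 2i but at 16 hr with vitC, and no comparison passed (adjusted p = 0.182 to 0.621 between times, edgeR).

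The Myc and Mycn calls for 24 hr against 4 hr rested on single libraries. The Myc call was lost without the vitC library at 4 hr (1.5, adjusted p = 0.0611, edgeR) or at 24 hr (1.84, adjusted p = 0.0752). The Mycn call was lost without the 2i library at 4 hr (-0.39, adjusted p = 0.177, edgeR) or at 24 hr (-0.41, adjusted p = 0.249). With the percentage of Lars2 and related reads as a covariate, an alternative added with earlier results of these data known, neither was called, at 1.37 (adjusted p = 0.454, edgeR) for Myc and -0.72 (adjusted p = 0.301) for Mycn. In that fit the Myc rise from 4 to 32 hr remained called (2.21, adjusted p = 0.0125, edgeR), as did that of Junb (0.85, adjusted p = 0.00754), whereas Ier2 was not called (0.50, adjusted p = 0.0664). Without the 2i library at 32 hr, Myc was at 2.31 for 32 hr against 4 hr (adjusted p = 0.0506, edgeR), and none of the 10 genes was called there.

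Relative to length, Mycn remained the main MYC family transcript throughout. Its share of the summed RPKM of the family was 84.9%, 77.4%, 67.1%, and 65.2% at 4, 16, 24, and 32 hr in 2i and 79.5%, 79.4%, 70.3%, and 67.5% with vitC. The share of Myc was 2.60%, 4.62%, 10.6%, and 12.9% in 2i and 1.25%, 9.53%, 15.7%, and 12.5% with vitC. Mycl held the rest, between 11.1% and 22.3%. The ratio of Mycn to Myc thus went from 32.6 at 4 hr to 5.07 at 32 hr in 2i and from 63.5 to 5.39 with vitC. The sum of all 3 genes was 37.0 RPKM at 4 hr and 31.5 at 32 hr in 2i, with a low of 23.3 at 24 hr. With vitC it lay between 26.2 and 31.9 RPKM.

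**Figure D2:**
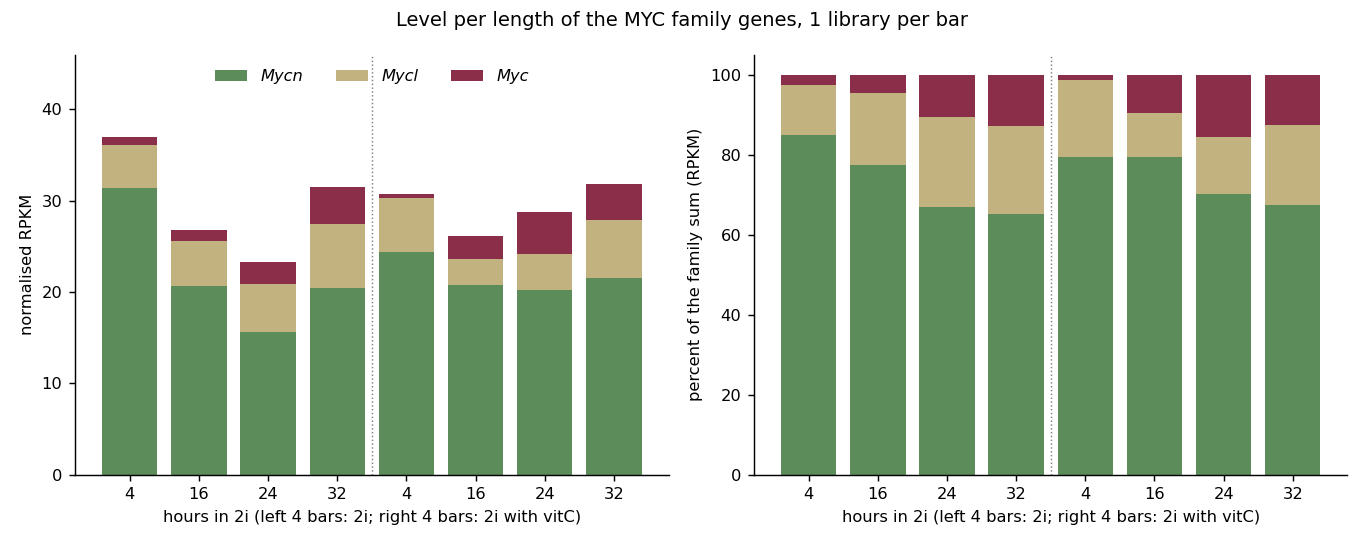
Normalised RPKM of Mycn, Mycl, and Myc stacked per library (left) and as percent of their sum (right), with the 2i libraries at 4, 16, 24, and 32 hr in the left 4 bars of each panel and the vitC libraries in the right 4. Mycn makes up 65.2% to 84.9% of every bar, and the Myc segment grows from 2.60% to 12.9% in 2i and from 1.25% to 12.5% with vitC.

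Counted over the tested genes of the set, 1 of 8 rose and 1 of 8 fell between 4 and 24 hr, beside 11.5% of all genes tested that were called higher and 8.98% called lower. These counts are close to those of the table as a whole. Between 4 and 32 hr, 3 of 8 rose (Junb, Ier2, and Myc) and 0 fell, beside 13.5% and 11.8% of all genes. Between 4 and 16 hr edgeR called 0 of 8, beside 9.16% called higher and 7.24% called lower over all genes, with 4 of 8 at an unadjusted p under 0.05 and 1 (Myc) called by DESeq2. Between 16 and 32 hr it called 0 of 8, beside 0.335% and 0.248%, with 3 of 8 at an unadjusted p under 0.05 and 0 called by DESeq2. The median log2 fold change of the 8 genes was 0.05 for 24 hr against 4 hr and 0.31 for 32 hr against 4 hr, beside medians over all genes tested of 0.01 and 0.01. Over all genes, 1720 were called higher and 1341 lower at 24 hr against 4 hr, and with the GC content and length correction 1385 and 1722.

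**Figure D3:**
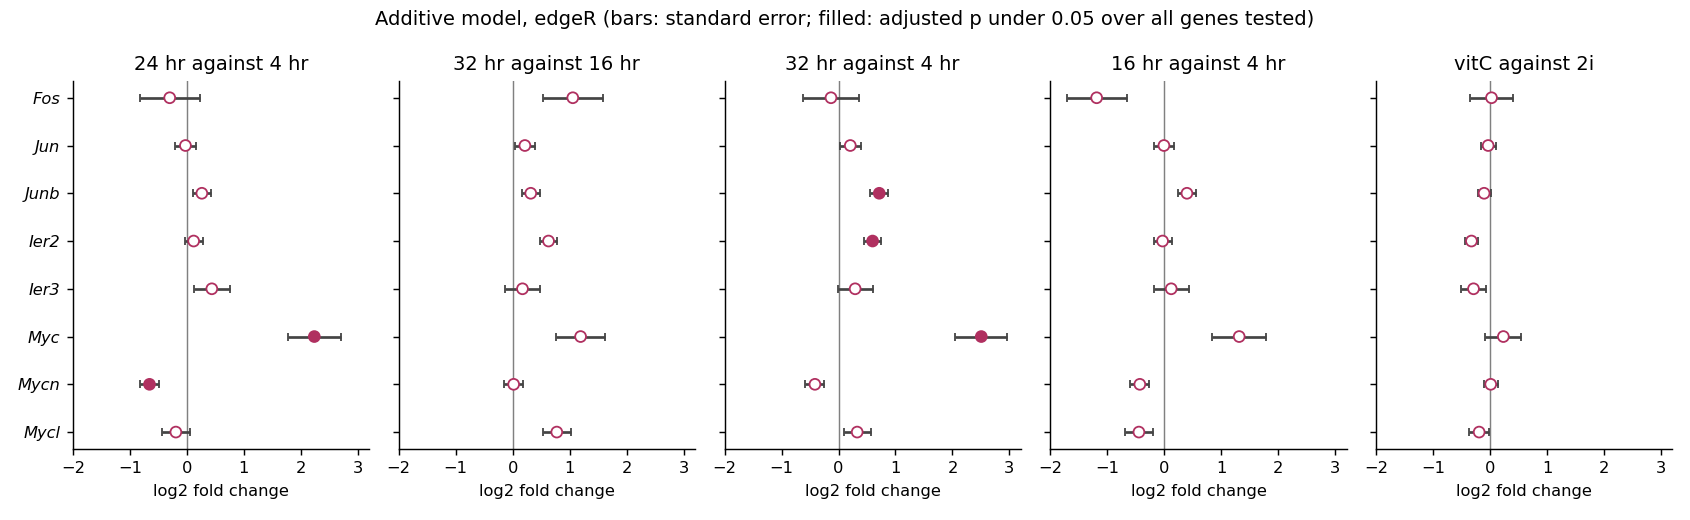
Log2 fold changes of the 8 tested genes in the additive edgeR model for 5 comparisons (horizontal axis, 0 as a grey line), with standard errors as bars and filled points for an adjusted p under 0.05 over all genes tested. Filled points are Myc (2.24) and Mycn (-0.66) at 24 hr against 4 hr and Myc (2.51), Junb (0.71), and Ier2 (0.60) at 32 hr against 4 hr; every point at 16 hr against 4 hr, 32 hr against 16 hr, and for vitC is open.

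None of these genes passed the threshold for vitC. edgeR called 0 of 8, beside 0.167% of all genes called in either direction, with 1 of 8 (Ier2) at an unadjusted p under 0.05 and 0 called by DESeq2. Ier2 was lower with vitC at all 4 times, at 0.663 of 2i at 4 hr (0.599 to 0.732), 0.931 at 16 hr (0.824 to 1.05), 0.866 at 24 hr (0.749 to 0.997), and 0.762 at 32 hr (0.698 to 0.832). In edgeR its vitC effect was -0.33 on the log2 scale, with a standard error of 0.11 and an adjusted p of 0.203. Myc crossed over, at 0.399 of 2i at 4 hr (0.202 to 0.74), 2.01 at 16 hr (1.35 to 2.98), 1.82 at 24 hr (1.28 to 2.57), and 0.986 at 32 hr (0.773 to 1.26). Mycl was at 1.28 of 2i at 4 hr (1.09 to 1.5) and 0.599 at 16 hr (0.465 to 0.763), and Mycn at 0.776 at 4 hr (0.719 to 0.838) and 1.29 at 24 hr (1.12 to 1.48). Jun was at 1.24 of 2i at 16 hr (1.09 to 1.41) and 0.749 at 32 hr (0.671 to 0.836). Junb was at 1.18 at 4 hr (1.07 to 1.31), 0.812 at 16 hr (0.726 to 0.907), and 0.877 at 32 hr (0.804 to 0.956). Ier3 was at 0.529 at 16 hr (0.35 to 0.775). At the other times the intervals of Jun, Junb, and Ier3 included 1. A linear change of the vitC effect with hours was called by edgeR for 0 of 8, beside 0% of all genes, with 0 of 8 at an unadjusted p under 0.05 and 0 called by DESeq2.

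**Figure D4:**
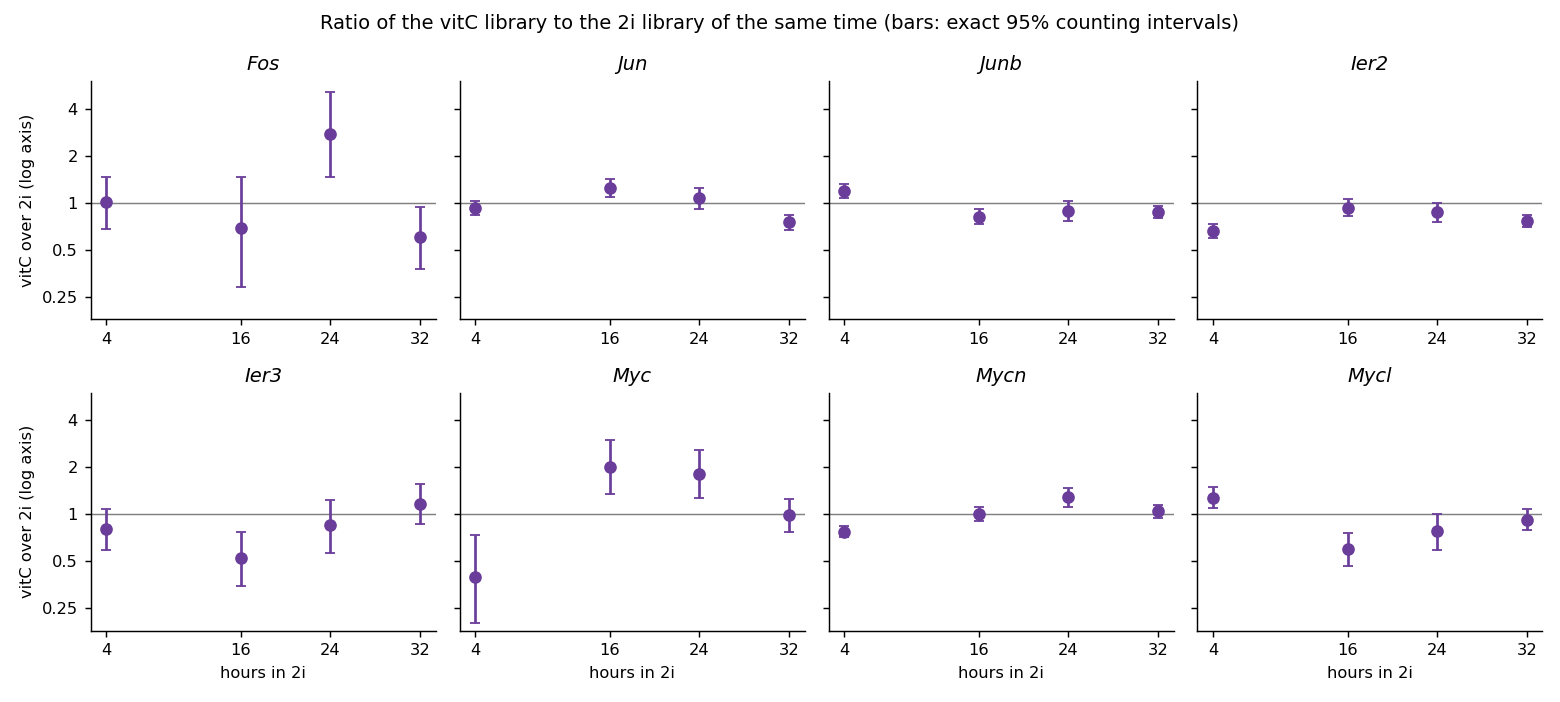
Ratio of the vitC library to the 2i library of the same time for the 8 tested genes (vertical log axis, 1 as a grey line) against hours in 2i, with exact 95% counting intervals as bars. Ier2 lies below 1 at every time, between 0.663 and 0.931, whereas Myc moves from 0.399 at 4 hr to 2.01 at 16 hr and 0.986 at 32 hr.

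The other genes of these pathways were read from lists chosen with earlier results of these data known, and their calls are edgeR calls for 24 hr against 4 hr unless another comparison is named. Of 31 other immediate early genes 26 were tested, and 6 rose and 1 fell, beside 11.5% of all genes called higher and 8.98% called lower, with a median log2 fold change of 0.30. Zfp36, whose product destabilises AU-rich mRNAs, rose by 1.52 (standard error 0.36, adjusted p = 0.0115, edgeR), and Btg1, an antiproliferative gene, rose by 0.88. Atf3, a stress-induced bZIP factor that can pair with JUN proteins, fell by 0.99. Egr2, Egr3, Fosb, Nr4a3, and Dusp2 were below the limit for testing, as were Egr1 and Fosl1. Jund, the remaining JUN gene, falls outside the rule by which list genes were named. It was at 104 CPM at 4 hr and 181 CPM at 32 hr in 2i and at 110 and 189 CPM with vitC. It was called between these times (0.79, adjusted p = 0.00505, edgeR), where lane and time cannot be told apart. Within a lane it was not called, at 0.43 for 24 hr against 4 hr (adjusted p = 0.0856, edgeR) and 0.22 for 32 hr against 16 hr (adjusted p = 0.581, edgeR).

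Upstream, 2 of 10 genes of the ERK pathway, the ternary complex factors, and SRF rose and 2 fell, beside the same 11.5% and 8.98% of all genes, with a list median of 0.07. Elk1, a ternary complex factor, rose by 0.84, and Mapk3, which encodes ERK1, by 0.84, whereas Map2k2, which encodes MEK2, fell by 0.48 and Srf by 0.48. Among 9 tested genes that ERK signalling induces (the ERK feedback list), 1 rose and 3 fell, beside 11.5% and 8.98% of all genes. Spry2 (0.86) rose, whereas Etv4 (-5.38), Dusp4 (-3.55), and Dusp5 (-1.29) fell. In 2i, Etv4 went from 54.7 CPM at 4 hr to 1.88 CPM at 24 hr and Dusp4 from 32.5 to 4.23 CPM. Among the tested immediate early and MYC genes of the set, none had a log2 fold change as low at 24 hr.

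Around MYC, 2 of 11 genes of the MAX network rose and 1 fell (median 0.21), which is near the 11.5% and 8.98% of all genes. Mlxipl (1.47) and Mnt (1.02), a MAX partner that opposes MYC, rose, and Mxd3 (-1.11), another such partner, fell. Among genes for GSK3 and MYC protein turnover, Gsk3b (0.69), which encodes GSK3β, and Huwe1 (0.54), a ubiquitin ligase, rose at 24 hr. Neither was called at 32 hr against 4 hr, with Gsk3b at 0.20 (adjusted p = 0.396, edgeR) and Huwe1 at 0.05 (adjusted p = 0.831, edgeR). The median of the 10 genes of this turnover list was 0.02 at 24 hr. At 32 hr against 4 hr 0 of these 10 rose and 4 fell (median -0.075), beside 13.5% and 11.8% of all genes. Of 20 genes commonly listed as activated by MYC, 1 rose and 4 fell at 24 hr (median -0.15), beside 11.5% and 8.98% of all genes. At 32 hr against 4 hr 1 rose and 8 fell (median -0.23), beside 13.5% and 11.8%. Odc1, the first enzyme of polyamine synthesis, fell by 1.21 (standard error 0.20, adjusted p = 0.00177, edgeR) and Nme1, a nucleoside diphosphate kinase, by 0.70. Bop1, a ribosome biogenesis factor, fell by 0.70 and Eif4e, the cap-binding protein, by 0.51 (0.16, adjusted p = 0.042, edgeR), whereas Ccnd2, a D-type cyclin, rose by 1.01 (0.17, adjusted p = 0.00198). Of 7 genes commonly listed as repressed by MYC, 2 rose and 1 fell (median 0.42), beside 11.5% and 8.98% of all genes, with Cdkn1a at 1.47, Gadd45a at 0.98, and Thbs1 at -0.46. At 32 hr against 4 hr 3 of these 7 genes rose and 0 fell (median 0.62), beside 13.5% and 11.8% of all genes. At 24 hr, while Myc mRNA rose and Mycn mRNA fell, genes of both lists were thus called in both directions. Cdkn1a, a cyclin-dependent kinase inhibitor, and Ccnd2 rose, whereas Odc1 and Thbs1 fell. A link of these genes to Myc or Mycn was not tested. MYC proteins were not measured. For vitC edgeR called 0 genes of any of these lists, beside 0.167% of all genes.

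**Figure D5:**
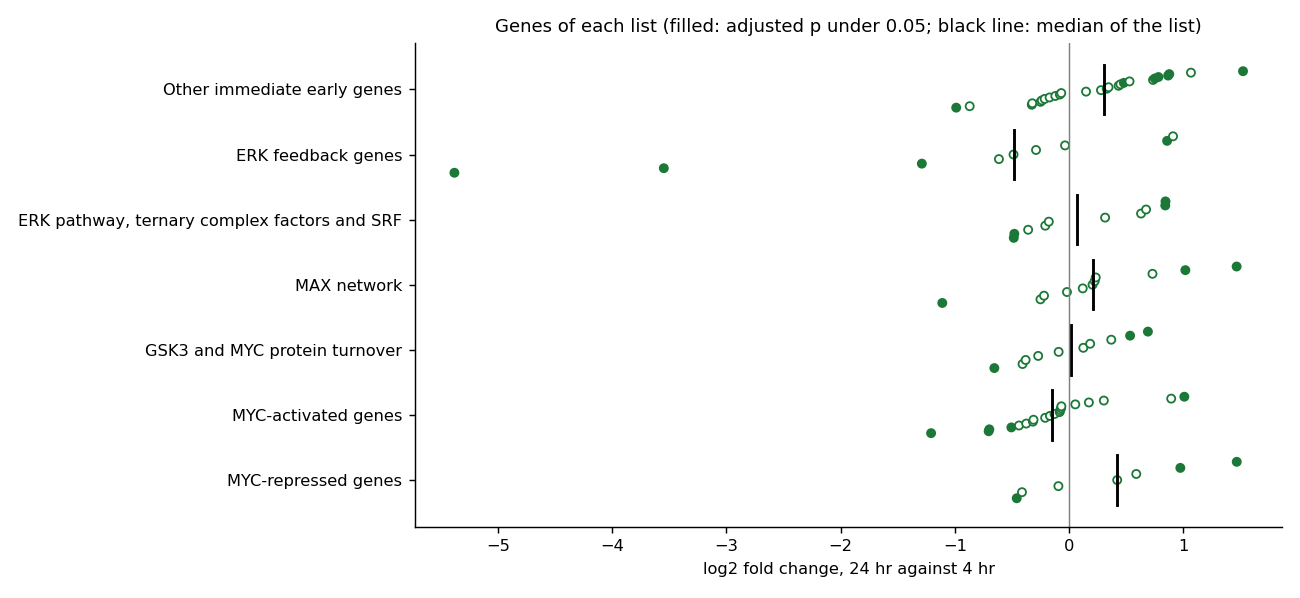
Log2 fold change of 24 hr against 4 hr (horizontal axis) for each tested gene of 7 lists, with filled points for an adjusted p under 0.05 over all genes tested (edgeR) and a black line at the median of each list. The medians run from -0.49 for the ERK feedback genes to 0.42 for the MYC-repressed genes, and Etv4 (-5.38) and Dusp4 (-3.55) are the points farthest to the left.

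As a description over 8 libraries that share their depth and composition, the protein-coding genes with the most similar course in log2 CPM, of 10457 compared, were Tent5a, Ptpn13, and Gstm1 for Myc (Pearson's r of 0.994, 0.992, and 0.988). They were Fv1, Rps6ka4, and Nf2 for Mycn (0.965, 0.961, and 0.955) and Dync1li1, Fam173a, and Cnppd1 for Mycl (0.98, 0.971, and 0.966). Junb ran closest with Ostm1 (0.992), Ier2 with Dppa5a (0.976), Jun with Col5a2 (0.96), and Ier3 with Vamp1 (0.936). Fos, Egr1, and Fosl1 lay below the mean of 5 CPM set for this and were not compared. Among the other 7 genes, none was one of the 3 most similar to another.

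The cells carried the markers of ESCs, with 10 pluripotency genes summing to 1780 to 2230 CPM in every library. Single genes moved in both directions under this sum. At 24 hr against 4 hr 2 were higher, Sox2 (1.03) and Esrrb (0.60), and 2 lower, Utf1 (-3.11) and Pou5f1 (-0.68) (edgeR), beside 11.5% and 8.98% of all genes. At 32 hr against 4 hr 3 were higher and 3 lower, beside 13.5% and 11.8%. The summed level of 10 fibroblast and feeder markers was 181, 292, 385, and 316 CPM at 4, 16, 24, and 32 hr in 2i and 140, 454, 709, and 467 CPM with vitC. Like Myc it was lowest at 4 hr in both treatments. With vitC both were highest at 24 hr, whereas in 2i this sum was highest at 24 hr and Myc at 32 hr. Of 8 tested, 4 were higher and 1 lower at 24 hr against 4 hr (edgeR), beside 11.5% and 8.98% of all genes. Col1a1 (2.35), Col1a2 (2.25), Pdgfra (1.24), and Pdgfrb (0.79) were higher and Acta2 (-2.24) was lower, and Col1a1 and Col1a2 made up 419 and 234 of the 709 CPM. Lum and Fap were at 0 in several libraries and below the limit for testing. Primitive endoderm markers summed to 72.6, 66.7, 110, and 121 CPM in 2i and 88.1, 83.2, 136, and 155 CPM with vitC. This sum too was thus higher at 24 and 32 hr than at 4 hr. Most of it was Lama1, at 59.1 and 77.1 CPM at 4 hr and 95.8 and 122 CPM at 32 hr, in 2i and with vitC. Of 6 markers tested, 3 were higher at 24 hr and 4 at 32 hr against 4 hr, with 0 lower (edgeR), beside 11.5% and 13.5% of all genes called higher. Pdgfra, which is in the fibroblast list as well, was among those called at both times. Gata4 and Gata6 were not called at either time. Sox7 and Foxa2 were at 0 in at least 1 library and not tested. The neural and mesoderm markers summed to 214 and 182 CPM at 4 hr and 70.5 and 87.7 CPM at 32 hr, in 2i and with vitC. Most of this was Tubb3, at 174 and 149 CPM at 4 hr and 51.1 and 58.7 CPM at 32 hr. At 32 hr against 4 hr 0 of 4 tested were higher and 2 lower, Tubb3 and Eomes (edgeR), beside 13.5% and 11.8% of all genes. Pax6, Neurog2, Mixl1, Mesp1, and Tbx6 were at 0 in at least 1 library and not tested. The 8 heat shock genes, which handling can induce together with immediate early genes, summed to 2000 and 1870 CPM at 4 hr and 1790 and 1940 CPM at 24 hr, with 4 of 8 lower at 24 hr, beside 8.98% of all genes, namely Hspa1a (-2.26), Hspa1b (-1.83), Hspa8 (-0.65), and Dnajb1 (-0.65). The part of other cells, of handling, or of the uneven reads in the changes of Myc, Mycn, Egr1, and Fosl1 was not tested beyond the covariate above.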

How the data were processed

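Per the labels, RNA was depleted with Ribo-Zero Gold and sequenced as 50-base single reads from TruSeq libraries. According to the submitters' processing notes, GSNAP, HTSeq, and the builds NCBIM37 and mm9 were used; the annotation version and strand setting are not given in the sources used here. The authors deposited raw counts per Ensembl gene, without normalization. No 2 libraries were identical. Symbols, exon lengths, and GC content came from GENCODE M21 (GRCm38), in which 32604 of 37263 identifiers were found; promoters came from RefSeq on GRCm38.p6, another build than that of the counts.

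edgeR 4.0.16 (TMM, quasi-likelihood, Benjamini-Hochberg) in R 4.3.3 was fitted to all 8 libraries with time and treatment (3 residual degrees of freedom), and with treatment by hours (2). Intervals are at 95%, Poisson for a level and exact conditional binomial for a ratio of 2 libraries. Also tried were DESeq2 1.42.0, RLE and library-total scaling, no filter or one at a mean of 5 CPM, no treatment term, a GC content and length correction, the omission of each library, and, added later, the Lars2 share as a covariate. The genes and lists were chosen with earlier results of these data known. All 10 genes are named, with up to 3 called genes a list by size of change (any number where 5 or fewer were called), and the 3 most similar genes (Pearson's r of log2(CPM + 0.5), mean of at least 5 CPM). The paper gives inhibitor concentrations in µM and the labels in mM. Inhibitor doses are therefore not printed. A gene of the list for GSK3 and MYC protein turnover is not reported here.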

Additional observations from a re-analysis of the deposited data

How the results depend on the processing

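Every log2 fold change of the 8 tested genes that changed sign under an alternative was one that had not been called, and the cause was not tested beyond what the alternative itself removes. With 1 library per combination, leaving one out leaves a time with a lone library that is assumed to vary like the others. The libraries carry no replicate numbers, and the time block, which pairs the vitC and 2i libraries of a time, was the pairing used for vitC. At 3 counts the floor is 0.158 to 0.643 CPM, which limits Egr1 and Fosl1, and Fos and Myc rest on as few as 9 and 14 counts in a library.

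Of the 8 tested genes, 2 were called for 24 hr against 4 hr, 1 to 2 with a library left out, and 0 with the Lars2 covariate. For 32 hr against 4 hr 3 were called, and 0 to 3 with a library left out (0 without the 2i library at 32 hr). With the GC content and length correction 2 were called there, Myc and Mycn. For 16 hr against 4 hr 0 were called, but 1 (Myc) by DESeq2, without the filter, or without the 2i library at 4 hr, so 0 to 1 with a library left out. For 32 hr against 16 hr 0 were called, but 3 (Ier2, Myc, and Mycl) without the filter. For vitC and its change with hours 0 were called under every alternative run.

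Over all genes, 2448 were called for 16 hr against 4 hr, 1289 without the treatment term, 801 with the Lars2 covariate, and 647 to 2063 with a library left out (647 without the vitC library at 4 hr, 1175 without the 2i library at 16 hr, 1455 without the vitC library at 16 hr). For 24 hr against 4 hr 3061 were called, 1891 without the treatment term, 87 with the covariate, and 748 to 3341 with a library left out (748 without the vitC library at 24 hr, 1014 without that at 4 hr, 1491 without the 2i library at 24 hr). For 32 hr against 4 hr 3785 were called, 2451 with the covariate, and 1403 to 4074 with a library left out (1403 without the 2i library at 32 hr, 1548 without the vitC library at 32 hr, 1780 without that at 4 hr). For 32 hr against 16 hr 87 were called, 239 by DESeq2, 589 without the filter, 11 without the treatment term, and 2 to 140 with a library left out. For vitC 25 were called, 299 by DESeq2, 690 without the filter, 13 with a mean of at least 5 CPM, 13 with the GC content and length correction, 54 with library totals, 60 without Lars2 and the 2 features, 0 without the time block, 0 with the covariate, and 0 to 458 with a library left out. For a vitC effect that changed with hours, 0 were called (431 at an unadjusted p under 0.05), 1 by DESeq2, 5 without the filter, and 0 to 25 with a library left out.

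With the Lars2 covariate the log2 fold changes that changed sign were those of Fos (0.881 at 24 hr and 0.299 at 32 hr, each against 4 hr), Ier2 (-0.15 at 24 hr against 4 hr), and Mycl (0.524 at 24 hr against 4 hr), and for vitC those of Junb (0.047), Myc (-0.23), Mycl (0.107), and Mycn (-0.022). Jun changed sign at 16 hr against 4 hr with library totals (0.007) and at a mean of at least 5 CPM (0.003), and for vitC with the GC content and length correction (0.004). Mycn did so at 32 hr against 16 hr with that correction (-0.064) and with library totals (-0.005), and for vitC without the time block (-0.023).

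With each library left out, the log2 fold change of Fos ranged from -1.276 to 0.572 at 24 hr against 4 hr, from -0.719 to 0.336 at 32 hr against 4 hr, and from -0.4 to 0.323 for vitC. Ier2 ranged from -0.212 to 0.156 at 16 hr against 4 hr and from -0.051 to 0.308 at 24 hr against 4 hr. Ier3 ranged from -0.359 to 0.444 at 16 hr against 4 hr, from -0.167 to 0.639 at 32 hr against 16 hr, and from -0.066 to 0.635 at 32 hr against 4 hr. Jun ranged from -0.242 to 0.241 at 16 hr against 4 hr, from -0.105 to 0.064 at 24 hr against 4 hr, from -0.054 to 0.466 at 32 hr against 16 hr, from -0.067 to 0.454 at 32 hr against 4 hr, and from -0.153 to 0.107 for vitC. Myc ranged from -0.027 to 0.587 for vitC, Mycl from -0.562 to 0.182 at 24 hr and from -0.021 to 0.716 at 32 hr, each against 4 hr, and Mycn from -0.015 to 0.056 at 32 hr against 16 hr and from -0.1 to 0.157 for vitC.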
